A study of Rattus norvegicus with 24 samples.

Results

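Trained tibialis anterior muscles were compared after 30 and after 10 days of daily resistance training in the rat. The comparison took the 3 left muscles trained for 30 days and the 3 left muscles trained for 10 days, 6 of the 24 samples in the series, and ran across all transcripts in the table; the samples were chosen by their labelled day and side and not by any measured value. The tibialis anterior is the muscle at the front of the lower leg that lifts the foot. The animals were adult male Wistar rats in which an implanted pulse generator drove the left muscle to contract against the muscles of the calf once a day, while the right muscle of the same rat was not stimulated and is called contralateral. Muscles were taken about an hour after the last bout, so each level combines the state of the trained tissue with its acute response to that bout. The groups shared the implant surgery with its anaesthetic, antibiotic and analgesic, and no group carried a transgene or gene deletion. The 10-day and the 30-day muscles came from different rats. The 20 further days of training also meant 20 further days with the implant, which cannot be told apart in this design. The paper gives a single mean age at death over all its rats. Whether the groups also differed in age is therefore not known, and age cannot be told apart from training either.

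Skeletal muscle fibres respond to a bout of loading on several time scales. Within an hour, immediate early genes such as the Fos, Jun and Egr families and Myc are transcribed, together with genes whose products guard or repair the Z-disc and the cytoskeleton under strain. Over days to weeks, fibres enlarge, the matrix around them is remodelled, and mitochondria accumulate. Mitochondria carry a small genome of their own, which codes for 13 subunits of the respiratory chain and ATP synthase, while the remaining subunits come from the nucleus.

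Sequencing was done on polyadenylated RNA, and the deposited values are TPM-type: scaled for transcript length and brought to the same total in every muscle. The mRNAs of the mitochondrial genome took 24.1%, 23.4% and 27.4% of that total in the 10-day muscles and 39.9%, 43.0% and 43.9% in the 30-day muscles. The 2 groups did not overlap, and the difference was 17.3 percentage points (exact permutation test, two-sided, p = 0.10, the smallest that 3 against 3 allows). The muscles trained for 20 days lay between them at 33.0%, 31.1% and 35.5%. In the contralateral muscles the share was 31.6%, 28.4% and 28.0% at 10 days and 43.7%, 34.6% and 29.7% at 30 days, and 1 of them, at 30 days, was as high as the trained ones (exact permutation test, two-sided, p = 0.20). The top 10 transcripts by level took up 31.4% ± 1.07 (SD, n = 3) of the total at 10 days and 43.9% ± 1.63 at 30 days (exact permutation test, two-sided, p = 0.10). Because a fixed total forces other values down when these rise, every value below was divided by a median-of-ratios factor for its muscle, between 1.02 and 1.14 at 10 days and between 0.807 and 0.915 at 30 days, and is called the rescaled value. On the values as deposited, the median log2 difference over all transcripts was -0.27 rather than -0.01.

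Between 10 and 30 days of training, all 13 mRNAs of the mitochondrial genome rose, and the genes that fell included 9 of 46 immediate early genes, 8 of 35 stretch-responsive and sarcomere genes, 4 of 16 collagens and 5 of 52 other matrix genes. Of 13452 transcripts tested, 273 (2.03%) passed an adjusted p of 0.05 in limma, 112 of them higher at 30 days (0.833%) and 161 lower (1.20%). The median size of these differences was 0.87 on the log2 scale, against 0.20 over all transcripts. An unadjusted p under 0.05 was reached by 2303 of the 13452. The 3 muscles of one group lay outside the range of the other for 269 of the 273, while 22.7% of all transcripts tested separated in this way. The split depended on the scaling. Higher transcripts made up 41.0% of the calls here. On the values as deposited, 47 were higher (0.347%) and 1678 lower (12.4%), so that 2.72% of the calls were higher. With nuclear transcripts scaled to their own total, a scaling chosen after seeing the data, 204 were higher and 156 lower, or 56.7% of the calls higher, and 231 of the 273 calls were shared. The calls also leaned on the spread pooled over all 24 muscles, since 53 transcripts passed in a fit of the 12 trained muscles alone and 23 in a fit of the 6 muscles. Leaving out muscle 1, 2 or 3 of the 10-day group gave 72, 107 and 353 calls, leaving out muscle 1, 2 or 3 of the 30-day group gave 133, 131 and 99, and 54 transcripts passed in all 6 of these fits. The plot of all transcripts tested shows the falling side reaching further from 0 than the rising side.

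**Figure D1:**
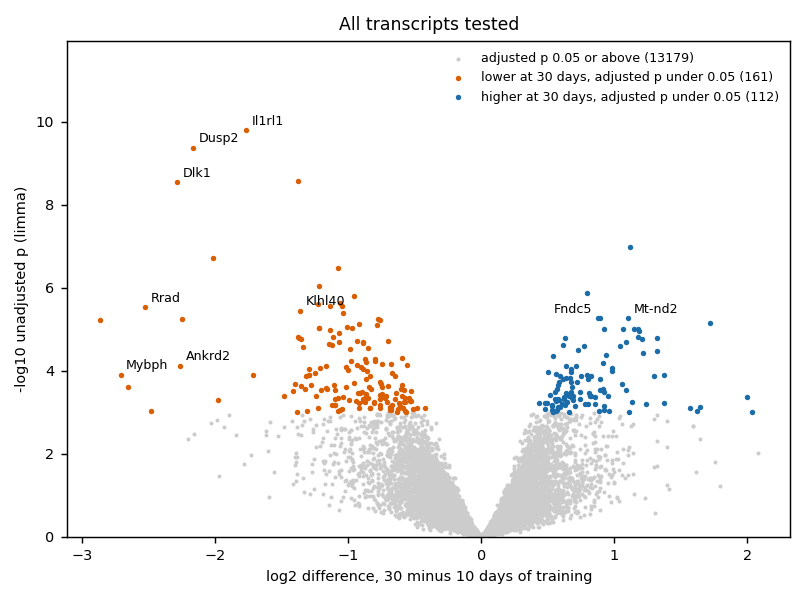
Log2 difference between 30 and 10 days of training (x axis) against -log10 of the unadjusted limma p (y axis) for each of 13452 transcripts, with the 112 higher and 161 lower transcripts in colour. Il1rl1 and Dusp2 stand highest on the falling side, and Fndc5 and the mitochondrially encoded Mt-nd2 are labelled on the rising side.

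The muscles trained for 20 days, which did not enter the contrast, had means between those of 10 and 30 days for 261 of the 273 transcripts (95.6%). The same held for 45.6% of all transcripts, and 2-day means lay between the 2 groups for 54.2% of the 273 and 29.4% of all. On the log2 scale the 20-day mean had covered a median of 0.60 of the way from 10 to 30 days. Set against the 12 contralateral muscles, 143 of the 161 falling transcripts had a 10-day mean above the highest contralateral muscle, and 71 still had a 30-day mean above it. Of the 112 rising transcripts, 77 had a 10-day mean below the lowest contralateral muscle and 5 had a 30-day mean below it, while 44 had a 30-day mean above the highest. Over all transcripts tested, the 10-day mean lay above the highest contralateral muscle for 16.1% and below the lowest for 12.7%. The rising and falling sets were chosen partly on their 10-day level, so these counts describe them and test nothing.

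All 13 mRNAs encoded by mitochondrial DNA rose, by log2 differences of 0.94 to 1.32 with a median of 1.15, and in each of them the 3 muscles trained for 30 days lay above the 3 trained for 10 days. They encode subunits of complex I (Mt-nd1 to Mt-nd6 and Mt-nd4l), complex III (Mt-cyb), complex IV (Mt-co1 to Mt-co3) and ATP synthase (Mt-atp6 and Mt-atp8). The most abundant was Mt-co1, the catalytic subunit of cytochrome c oxidase, on the mitochondrial genome of Rnor_6.0 from 5323 to 6867. Its rescaled value was 26517, 27830.1 and 29779.7 at 10 days, whereas at 30 days it was 54461, 68698 and 68111. The log2 difference was 1.18 (standard error 0.22, adjusted p = 0.00509). Mt-nd2, a complex I subunit, had rescaled values of 13334, 14772 and 15566 at 10 days and 30622, 31719 and 31274 at 30 days, a log2 difference of 1.10 (standard error 0.19, adjusted p = 0.00342), with little spread in either group. Mt-cyb showed the smallest difference of the 13, from 13075, 14818 and 15361 to 24035, 30813 and 28438 (log2 difference 0.94, adjusted p = 0.00862). Mt-nd4l and Mt-atp8 showed the largest, with log2 differences of 1.32 and 1.32, but Mt-nd4l overlaps Mt-nd4 and Mt-atp8 overlaps Mt-atp6 on the same strand, and how reads were split between them was not tested. Mt-nd6, the mRNA read from the other strand, was 1436, 1441 and 2692 at 10 days, where muscle 3 stood above muscles 1 and 2, and 3746, 3558 and 4039 at 30 days (log2 difference 1.09, adjusted p = 0.0276).

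**Figure D2:**
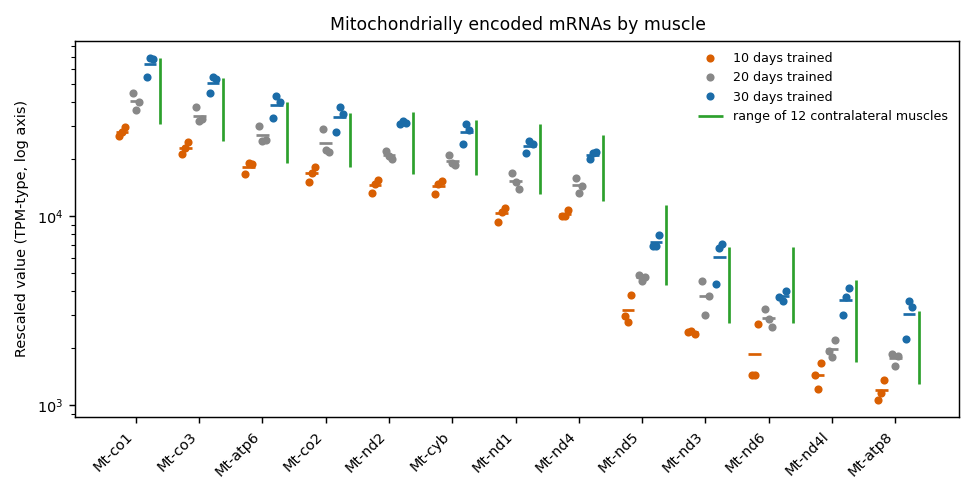
Rescaled value (TPM-type, log axis) of the 13 mitochondrially encoded mRNAs in each muscle trained for 10, 20 or 30 days, with short lines for group means and a vertical green line for the range of the 12 contralateral muscles. In every mRNA the 3 muscles trained for 30 days lie above the 3 trained for 10 days.

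The ribosomal RNAs of the mitochondrion rose too, AY172581.9 by 1.05 on the log2 scale. AY172581.24, from 1094 to 2664 on the mitochondrial genome, had rescaled values of 1066, 1099.8 and 1261 at 10 days and 2135, 2544 and 3161 at 30 days (log2 difference 1.18, adjusted p = 0.00380). All 13 mRNAs also passed on the values as deposited, where their median log2 difference was 0.80. In the contralateral muscles of the same rats the median difference between 30 and 10 days was 0.47, with 0 of 13 passing in limma, and after each rat's own contralateral muscle had been subtracted it was 0.70, again with 0 of 13 passing the adjusted threshold in limma. For Mt-co1 the latter difference was 0.76 (unadjusted p = 0.0364), for Mt-nd2 it was 0.64 (unadjusted p = 0.0187) and for Mt-nd6 it was 0.50 (unadjusted p = 0.117). The 10-day means of Mt-co1 and Mt-nd2 lay below all 12 contralateral muscles, whose ranges were 30612 to 68896 and 16663 to 35657. With 1 of the 6 muscles left out in turn, 8 to 13 of the 13 passed; the count of 8 was without 10-day muscle 1, and 5 passed in the fit of the 6 muscles.

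Nuclear genes of the respiratory chain leaned the same way but few passed the test. Of 78 nuclear genes of complexes I to IV and ATP synthase tested, 75 had a log2 difference above 0, with a median of 0.41, and 5 rose past the threshold. These 5 were Ndufb9 and Ndufa9 of complex I, Cox7b of complex IV, and Atp5f1c and Atp5pf of ATP synthase. Ndufa9 had rescaled values of 173, 208 and 219 at 10 days and 303, 337 and 294 at 30 days, with no overlap (log2 difference 0.64, standard error 0.14, adjusted p = 0.0185). Atp5f1c, the gamma subunit of the ATP synthase stalk, was 349.6, 364 and 391 and then 551, 638 and 581 (log2 difference 0.68, standard error 0.14, adjusted p = 0.0158). Ndufb9 differed by 0.68 (adjusted p = 0.0335), Cox7b by 0.56 (adjusted p = 0.0486) and Atp5pf by 0.62 (adjusted p = 0.0328). None of the 5 passed on the values as deposited, where the median of the list was 0.07 against -0.27 for all transcripts, whereas 36 of the 78 passed with nuclear transcripts scaled to their own total and 29 with the filter at a mean of 10. Without 10-day muscle 1 or without 30-day muscle 2 none of the 78 passed, and 1 passed without 10-day muscle 2 or without 30-day muscle 3. In the contralateral muscles the median of the same 78 was -0.06.

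The lists of the citric acid cycle, fatty acid oxidation and mitochondrial translation sat above the median of all transcripts as well. Fatty acid oxidation, which feeds the chain with electrons from fat, had a median of 0.32 over 28 members, and 3 rose. These were Acaa2 (log2 difference 0.66, adjusted p = 0.0323), the mitochondrial thiolase, Hadhb (log2 difference 0.64, adjusted p = 0.0296), a subunit of the trifunctional protein, and Cpt2 (log2 difference 0.57, adjusted p = 0.0272), the inner carnitine acyltransferase. Hadhb was 224, 231 and 276 at 10 days and 384, 407 and 343 at 30 days. Of the 24 citric acid cycle members 0 passed in limma although 22 were above 0 and 16 had an unadjusted p under 0.05; Mdh2 was 425, 504 and 525 and 705, 731 and 618 (log2 difference 0.50, adjusted p = 0.0580). Over all transcripts tested, 2303 of 13452 had an unadjusted p under 0.05. Branched-chain amino acid breakdown had a median of 0.09 with 2 of 24 higher, Mcee (log2 difference 0.68, adjusted p = 0.0145) and Acat1 (log2 difference 0.61, adjusted p = 0.0191). Of 73 mitochondrial ribosomal proteins, 62 were above 0 with a median of 0.25, and 1 rose, Mrpl50 (log2 difference 0.53, adjusted p = 0.0417). Among 24 regulators of mitochondrial biogenesis the median was 0.18 and 1 rose, Lrpprc (log2 difference 0.58, adjusted p = 0.0241), which stabilises mitochondrial mRNAs; the most abundant members, Mfn2 and Esrra, had log2 differences of 0.11 and -0.07 (adjusted p = 0.717 and 0.873). None of the genes named in this paragraph as higher passed on the values as deposited. The plot of list medians shows the mitochondrial lists on the right for the trained muscles, with their contralateral medians at or just below 0 except for the mitochondrially encoded mRNAs.

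**Figure D3:**
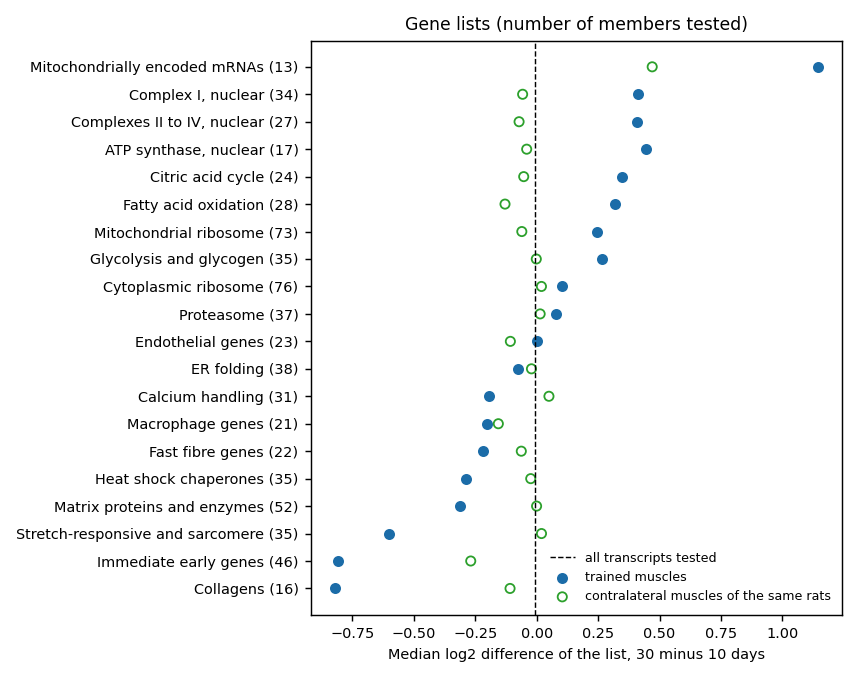
Median log2 difference between 30 and 10 days (x axis) for 20 gene lists (y axis, with the number of members tested), for trained muscles (filled) and contralateral muscles of the same rats (open); the dashed line is the median of all transcripts tested. The mitochondrially encoded mRNAs have the highest trained median at 1.15 and the collagens the lowest at -0.82.

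Transcripts of the mitochondrial genome filled most of the ranking by size, and nuclear transcripts with large rises were picked from it after their values had been seen. Fndc5, the precursor of irisin, on chromosome 5 from 147323240 to 147330266, was 44.4, 58.6 and 48.5 at 10 days and 94.9, 92.1 and 91.4 at 30 days (log2 difference 0.88, standard error 0.15, adjusted p = 0.00342). Sar1b, a GTPase of vesicle budding from the endoplasmic reticulum, was 133, 116 and 153 and 261, 239.8 and 259.6 (log2 difference 0.92, standard error 0.16, adjusted p = 0.00380), with all 6 trained muscles below the contralateral range of 283 to 416. Stx8, a syntaxin of the endosome, was 6.41, 4.05 and 5.15 and 10.8, 10.7 and 10.2 (log2 difference 0.92, standard error 0.19, adjusted p = 0.0120).

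A transcript labelled Ndufv3-203, after a small complex I subunit, and Uqcrb, a complex III subunit, rose by 0.96 and 0.85 (adjusted p = 0.0323 and 0.0328). Ndufv3-203 is placed on chromosome 13 from 51297295 to 51297621. Whether it comes from the gene itself or from a copy elsewhere was not tested. In the respiratory chain lists Ndufv3 and Uqcrb are represented by the more abundant transcripts Ndufv3-202 and Uqcrb-202, which did not pass (log2 differences 0.50 and 0.59). Coq8a, needed for making coenzyme Q, was 206, 263 and 194 at 10 days and 439.9, 432 and 309 at 30 days (log2 difference 0.82, adjusted p = 0.0323). Mxi1, which binds Max in place of Myc, was 16.6, 12.3 and 15.5 and 26.3, 28.9 and 27.2 (log2 difference 0.86, adjusted p = 0.0390). Gstm7, Asb10 and Tmem126a rose by 0.89, 0.81 and 0.80. Ptpn3-202, a transcript of Ptpn3 annotated for nonsense-mediated decay and not as protein-coding, rose by 0.83. On the values as deposited Fndc5, Sar1b, Stx8, Ndufv3-203, Uqcrb and Tmem126a still passed, and Coq8a, Mxi1, Gstm7, Ptpn3-202 and Asb10 did not (adjusted p from 0.0565 to 0.116). Leaving out 1 muscle at a time ended the call at least once for each of these except Fndc5 and Sar1b. In the contralateral muscles Fndc5 differed by 0.39, Asb10 by 0.41, Mxi1 by 0.31, Sar1b by -0.06 and Stx8 by -0.10. The others lay between 0.04 (Ptpn3-202) and 0.22 (Coq8a). Subtracting each rat's own contralateral muscle left 0.49 for Fndc5, 0.40 for Asb10, 0.55 for Mxi1, 0.98 for Sar1b and 1.01 for Stx8 (limma, unadjusted p = 0.0312, 0.0975, 0.0648, 0.00226 and 0.00273).

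**Figure D4:**
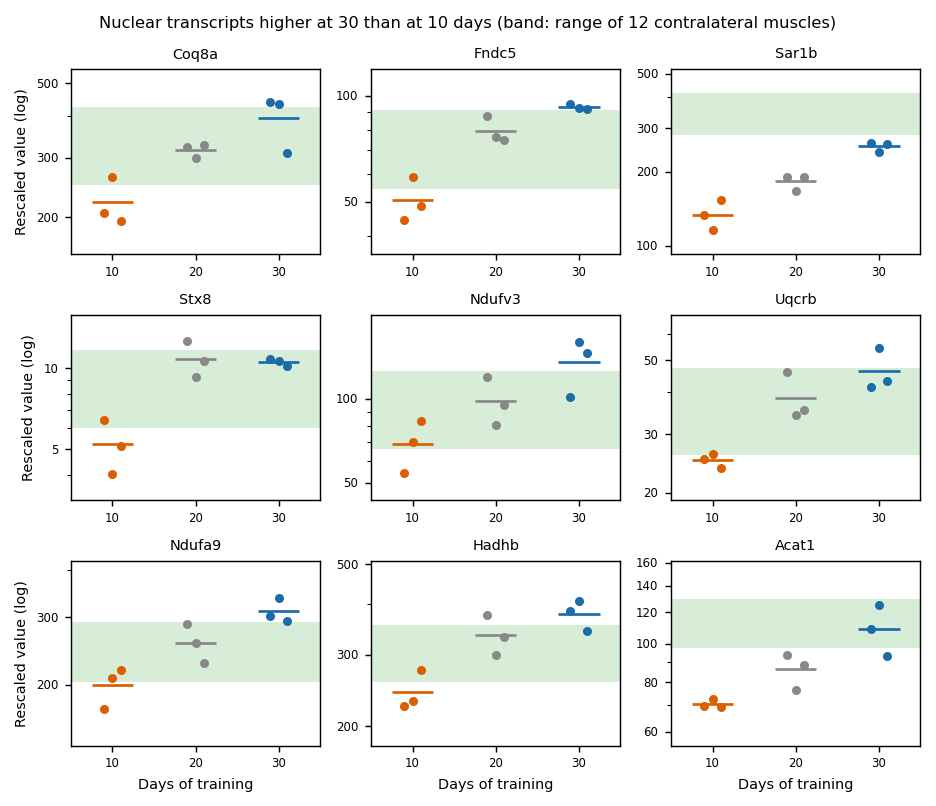
Rescaled value (log axis) of 9 nuclear transcripts that were higher at 30 than at 10 days, by days of training (x axis), with each point a muscle, a short line the mean of 3, and the green band the range of the 12 contralateral muscles. The Sar1b muscles lie below the band at every time and move towards it by 30 days. The panel headed Ndufv3 shows the transcript Ndufv3-203.

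Some genes whose products sit at the Z-disc and the strained cytoskeleton fell. Of 35 stretch-responsive and sarcomere genes tested, 8 were lower at 30 days and 0 higher, against 1.20% lower among all transcripts, and the median log2 difference was -0.60 against 0.02 in the contralateral muscles. Ankrd2, a titin-binding ankyrin repeat protein also counted among the slow fibre genes, had rescaled values of 58.7, 109 and 29.8 at 10 days and 5.99, 16.7 and 13.9 at 30 days. That was a log2 difference of -2.26 (standard error 0.47, adjusted p = 0.0130), and the 30-day muscles lay within or below the contralateral range of 8.64 to 22.1. Hspb7, a small heat shock protein bound to filamin C, was 1715, 2421 and 996 at 10 days and 503, 785 and 568 at 30 days (log2 difference -1.40, standard error 0.32, adjusted p = 0.0236). Unlike Ankrd2, it stayed above the contralateral muscles, which spanned 83.7 to 166. Klhl40, which protects thin filament proteins from degradation, fell from 320.2, 403 and 234 to 115, 154 and 98.9 (log2 difference -1.36, standard error 0.22, adjusted p = 0.00303), again remaining above the contralateral range of 33.1 to 48.6. Xirp1 and Xirp2, actin-binding repeat proteins of damaged or growing sarcomeres, differed by -1.20 (adjusted p = 0.0276) and -1.10 (adjusted p = 0.0395). Xirp1 was 768, 824 and 766 at 10 days and 335, 474 and 249.6 at 30 days, with the contralateral muscles at 31.3 to 77.8. Between contralateral muscles Xirp1 differed by -0.58 and Xirp2 by 0.25. Subtracting each rat's own contralateral muscle left -0.63 for Xirp1 and -1.35 for Xirp2 (limma, unadjusted p = 0.0897 and 0.00651). Flnc, filamin C itself, fell from 479, 522 and 449 to 239, 246 and 190.0 (log2 difference -1.11, adjusted p = 0.0239). Pdlim3, a Z-disc adaptor, and Tmod1, which caps thin filaments, fell by 1.02 and 0.60 on the log2 scale and completed the 8.

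The cardiac-type ankyrin repeat gene Ankrd1 had values of 321, 423 and 103 at 10 days and 44.8, 56.1 and 60.1 at 30 days, without overlap, but 10-day muscle 3 stood far below muscles 1 and 2 and the difference did not pass (log2 difference -2.16, standard error 0.66, adjusted p = 0.0825). The same muscle was the lowest of its group for Ankrd2, Hspb7 and Klhl40, and without it 15 of the 35 genes passed. Without 10-day muscle 1 or 2, or without 30-day muscle 1, 1 gene passed, and without 30-day muscle 3 it was 3. In the fit of the 12 trained muscles alone, 0 of these genes passed in limma. All 8 fell on the values as deposited too, where 23 of the 35 were lower.

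RefSeq promoters of all genes tested that had one, not only of the stretch-responsive genes, were read for short motifs. They ran from 250 bases before the start to 50 bases after it. The motif TGANTCA, the site of the Fos and Jun dimer known as AP-1, was in 15 of the 111 promoters of falling genes (13.5%, Wilson 95% interval 8.36% to 21.1%), in 1 of 72 of rising genes (1.39%) and in 379 of 8106 of all genes tested (4.68%). Among the 1207 promoters of genes that fell on the values as deposited it was in 73 (6.05%). The 15 genes were C1qtnf6, Capn2, Ccl7, Emp1, Klhl40, Lmna, Plaur, Plp2, Prnp, Rcan1, Th, Xirp1, Xirp2, Zer1 and Zfand2a. Of the falling stretch-responsive genes, Klhl40, Xirp1 and Xirp2 are among them, while Ankrd2, Hspb7, Flnc, Pdlim3 and Tmod1 are not. Of the other 6 motifs searched, CACGTG was in 9.91% of falling and 9.83% of all promoters, TGCGCA was in 8.11% of falling and 14.4% of all, and AGGTCA was in 16.7% of rising, 17.1% of falling and 11.9% of all. The promoters of 4 falling muscle genes are shown for the place of the motif, as given in RefSeq on GRCr8, a newer build than that of the deposited table, 5′ to 3′ on the strand of the gene, with TGANTCA in capitals and the first listed start where a gene had several. All 4 were picked from the 15 genes with the motif. Klhl40 holds 2 copies. Whether the listed start is that of the measured transcript was not tested, and a match is a description of letters and no sign of binding.
Xirp1, chr8:128634962-128635261, strand -: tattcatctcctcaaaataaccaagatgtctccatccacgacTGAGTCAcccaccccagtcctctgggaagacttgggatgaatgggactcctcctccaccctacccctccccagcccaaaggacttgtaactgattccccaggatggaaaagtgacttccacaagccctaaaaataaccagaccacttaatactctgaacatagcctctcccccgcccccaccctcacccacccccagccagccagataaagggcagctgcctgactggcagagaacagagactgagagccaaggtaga
Xirp2, chr3:72533936-72534235, strand +: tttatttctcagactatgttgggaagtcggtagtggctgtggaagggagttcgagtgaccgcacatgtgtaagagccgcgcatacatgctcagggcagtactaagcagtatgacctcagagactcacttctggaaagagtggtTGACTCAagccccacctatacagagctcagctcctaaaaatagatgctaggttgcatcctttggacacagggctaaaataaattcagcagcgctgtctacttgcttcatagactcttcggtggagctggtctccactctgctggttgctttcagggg
Klhl40, chr8:130318543-130318842, strand +: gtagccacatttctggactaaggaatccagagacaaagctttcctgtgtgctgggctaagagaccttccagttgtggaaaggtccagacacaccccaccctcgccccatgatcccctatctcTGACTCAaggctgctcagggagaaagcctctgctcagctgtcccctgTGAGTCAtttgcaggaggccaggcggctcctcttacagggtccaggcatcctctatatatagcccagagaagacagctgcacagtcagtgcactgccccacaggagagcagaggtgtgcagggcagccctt
Rcan1, chr11:45118187-45118486, strand -: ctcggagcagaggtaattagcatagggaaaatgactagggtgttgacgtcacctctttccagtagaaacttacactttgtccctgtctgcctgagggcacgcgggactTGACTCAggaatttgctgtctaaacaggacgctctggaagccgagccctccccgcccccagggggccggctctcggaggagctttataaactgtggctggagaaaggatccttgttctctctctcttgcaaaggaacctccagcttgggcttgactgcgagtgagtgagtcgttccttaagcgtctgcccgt

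Among muscle genes that fell most, Mybph, a myosin-binding protein kept in the list of fast fibre genes, went from 292, 489.9 and 141 at 10 days to 15.3, 83 and 52.2 at 30 days, on chromosome 13 from 51034256 to 51041902. The log2 difference was -2.71 (standard error 0.59, adjusted p = 0.0170), and 30-day muscle 1 was lower than the contralateral range of 38.3 to 135. Another 3 of the 12 largest falls were transcripts known by a locus identifier alone and are not described. Scx, a tendon transcription factor, and Dtx3, a ubiquitin ligase of the Deltex family, fell by 1.39 and 1.37 on the log2 scale, Scx only just inside the threshold (adjusted p = 0.0499).

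Rcan1, the feedback inhibitor of calcineurin, fell from 296, 326 and 240.0 to 108, 174 and 78 (log2 difference -1.32, standard error 0.29, adjusted p = 0.0172), and Mef2c, a muscle transcription factor regulated by calcium, fell from 172, 166 and 146 to 99, 97.8 and 124 (log2 difference -0.59, standard error 0.12, adjusted p = 0.0101). These were the 2 of 31 calcium handling genes that passed. In the contralateral muscles Rcan1 differed by -0.62 and Mef2c by 0.18. Subtracting each rat's own contralateral muscle left -0.70 for Rcan1 and -0.78 for Mef2c (limma, unadjusted p = 0.0429 and 0.000603). Casq2, the calsequestrin of slow and cardiac muscle, was 62.3, 61.2 and 16.1 at 10 days and 15.8, 18.4 and 12.6 at 30 days (log2 difference -1.31, adjusted p = 0.0485), where 10-day muscle 3 overlapped the 30-day muscles. Casq2 and Ankrd2 were the 2 of 20 slow fibre genes that fell, beside a list median of -0.03, and in the fast list Mybph was the 1 of 22, beside a median of -0.22.

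**Figure D5:**
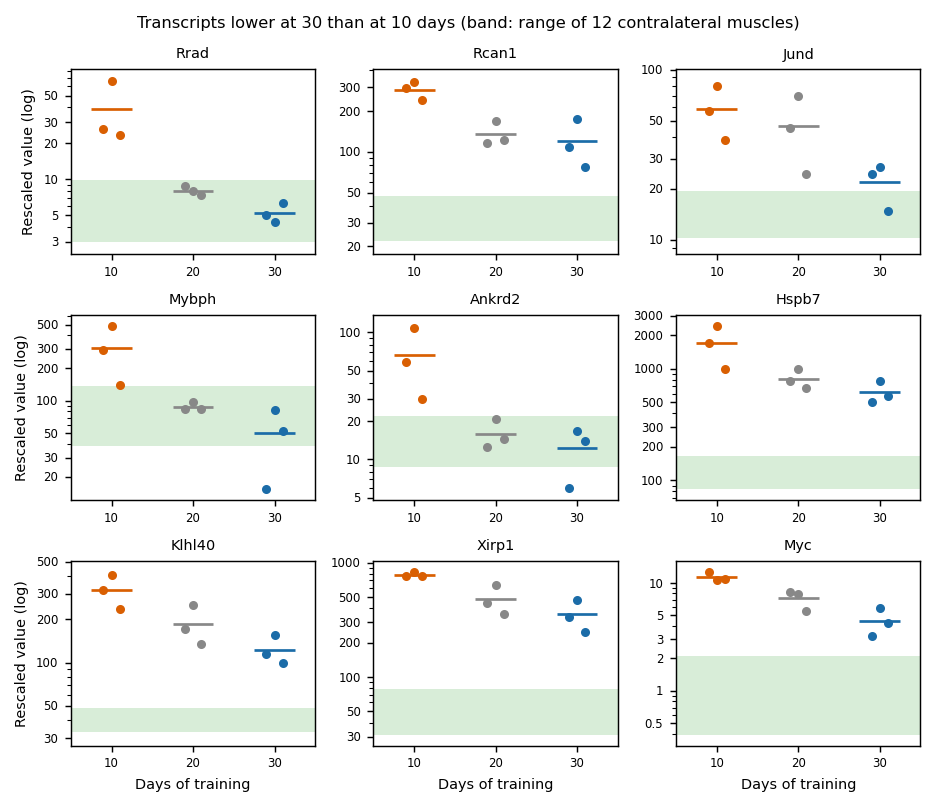
Rescaled value (log axis) of 9 transcripts that were lower at 30 than at 10 days, by days of training (x axis), with each point a muscle, a short line the mean of 3, and the green band the range of the 12 contralateral muscles. Rrad, Mybph and Ankrd2 reach the band by 30 days, while Hspb7, Klhl40, Xirp1 and Myc stay above it.

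Part of the immediate early genes fell between the bout at 10 days and the bout at 30 days. Of 46 tested, 9 fell and 0 rose, 44 were below 0, and the median was -0.81. The contralateral median was -0.27. With each rat's own contralateral muscle subtracted, the median was -0.42, and 36 were below 0 and 10 above. Rrad, a small GTPase that dampens calcium channels, was 26.3, 66.2 and 23.5 at 10 days and 5.01, 4.35 and 6.29 at 30 days, a log2 difference of -2.53 (standard error 0.41, adjusted p = 0.00266). Its 20-day muscles were already at 8.69, 7.88 and 7.37, within the contralateral range of 2.95 to 9.86. Dusp2, a phosphatase that switches off MAP kinases, was 15.5, 14.6 and 12 and 2.46, 2.96 and 1.71 (log2 difference -2.16, standard error 0.21, adjusted p = 2.82e-06), well above contralateral muscles at both times, whose highest value was 0.563. Socs3, the feedback inhibitor of interleukin-6 family signalling, fell from 7.82, 3.67 and 6.66 to 0.867, 1.32 and 1.07 (log2 difference -1.71, standard error 0.37, adjusted p = 0.0170). Jund, the AP-1 subunit, fell from 57.2, 80.4 and 38.5 to 24.3, 26.8 and 14.9 (log2 difference -1.36, standard error 0.31, adjusted p = 0.0250). Myc, the growth-promoting transcription factor, fell from 12.8, 10.6 and 10.9 to 3.23, 5.93 and 4.25 (log2 difference -1.21, standard error 0.25, adjusted p = 0.0138), and its 30-day muscles were still above the contralateral range of 0.386 to 2.10. Gadd45b, Fosl1, Dusp5 and Klf6 made up the 9, with log2 differences of -1.08, -0.90, -0.88 and -0.76.

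The best known members did not pass. Atf3 was 462, 398 and 155 at 10 days and 94.5, 230.0 and 34.7 at 30 days, where the groups overlapped (log2 difference -1.73, standard error 0.63, adjusted p = 0.144), although another transcript, Atf3-202, fell by 1.30 on the log2 scale. Fos, Egr1 and Junb, the classic transcription factors of this response, had log2 differences of -1.10, -0.97 and -0.53. Each was without overlap between the groups, as were 22.7% of all transcripts tested. The orphan receptors Nr4a1, Nr4a2 and Nr4a3 had -0.46, 0.34 and 0.10. All of these but Atf3 were named after their values were seen. Leaving out 10-day muscle 1 left 2 of the 46 past the threshold, 10-day muscle 2 left 5 and 30-day muscle 3 left 3, while 23 fell on the values as deposited.

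Il1rl1, the receptor for interleukin-33, was low throughout and fell from 4.20, 2.95 and 2.40 to 0.0731, 0.413 and 0.175 (log2 difference -1.76, standard error 0.16, adjusted p = 2.13e-06). Il1rl1 and Socs3 were the 2 of 23 cytokine signalling genes that passed. The 20-day, 30-day and contralateral muscles were all under 1 for Il1rl1, so it met the filter only through muscles trained for fewer days.

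A minority of collagen and matrix genes fell. All 16 collagen genes tested had a log2 difference below 0, with a median of -0.82, and 4 fell: Col4a1 and Col4a2, the chains of basement membrane collagen, Col8a1, and Col18a1, the precursor of endostatin. Col4a1 was 83.8, 61.3 and 93.2 at 10 days and 51.4, 39.8 and 38.3 at 30 days (log2 difference -0.86, standard error 0.18, adjusted p = 0.0152), and Col4a2 was 36.7, 29 and 41.5 and 23.8, 15.8 and 18 (log2 difference -0.87, standard error 0.22, adjusted p = 0.0374). In both genes the 30-day muscles lay between the 10-day muscles and the contralateral mean, 18.5 ± 2.95 (SD, n = 12) for Col4a1. In the contralateral muscles Col4a1 differed by -0.42 and Col4a2 by -0.17. Subtracting each rat's own contralateral muscle left -0.43 for Col4a1 and -0.70 for Col4a2 (limma, unadjusted p = 0.0786 and 0.0385). Col18a1 and Col8a1 differed by -0.75 (adjusted p = 0.0124) and -0.62 (adjusted p = 0.0387). The abundant fibrillar collagens did not pass: Col1a1 was 330.3, 153 and 147 at 10 days, led by muscle 1, and 72.4, 70.8 and 81.4 at 30 days (log2 difference -1.37, adjusted p = 0.0825), and Col3a1 was 472, 293 and 281 and 142, 191 and 171 (log2 difference -1.02, adjusted p = 0.123). No collagen passed in limma without 10-day muscle 1 or in the fit of the 12 trained muscles. Without 30-day muscle 2 or 3, 1 passed, and 10 passed in the fit with 8 groups.

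Of 52 other matrix proteins and enzymes 5 fell and 0 rose. Eln, elastin, fell from 8.61, 8.87 and 8.36 to 4.26, 3.60 and 3.40 (log2 difference -1.02, adjusted p = 0.0253), and Bgn, the proteoglycan biglycan, from 55, 42.1 and 33.2 to 20.7, 23.3 and 24.4 (log2 difference -0.88, adjusted p = 0.0341). In the contralateral muscles Eln differed by -0.68 and Bgn by 0.02. Subtracting each rat's own contralateral muscle left -0.34 for Eln and -0.89 for Bgn (limma, unadjusted p = 0.176 and 0.0114). Scx and Thbs1, an adhesive glycoprotein with -0.68, were also among the 5. The fibroblast list had a median of -0.29 with 0 of 13 passing in limma and 3 at an unadjusted p under 0.05. The summed rescaled value of 6 fibroblast markers was 114.5 to 210.4 at 10 days and 161.4 to 182.3 at 30 days, so the groups overlapped, and its part in the collagen result was not tested. In bulk muscle, fewer cells of a type and less RNA per cell cannot be told apart.

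Some cell cycle genes fell. Of 21 tested 6 fell, with a median of -0.28: Cdk1, Top2a, Aurkb, Ccna2, Mki67 and Ccnd3. Cdk1, the kinase of mitotic entry, was 2.57, 1.37 and 1.89 at 10 days and 0.289, 0.490 and near 0 at 30 days (log2 difference -1.22, standard error 0.20, adjusted p = 0.00266). Top2a, Aurkb and Ccna2 differed by -1.08, -1.05 and -0.89. The contralateral means of these 4 were between 0.0602 and 0.254, and at such levels the pseudocount of 1 makes each log2 difference smaller than that of the values. In these 4 every 30-day and every contralateral muscle was under 1. They therefore met the filter, a value of 1 in 3 samples, only through muscles trained for fewer days. The count of 6 of 21 thus follows in part from the filter.

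Antioxidant genes split. Sod2, the superoxide dismutase of the mitochondrial matrix, was 108, 108 and 133 at 10 days and 172, 166 and 161 at 30 days (log2 difference 0.52, adjusted p = 0.0320), and Me1, a source of NADPH, also rose (log2 difference 0.56, adjusted p = 0.0167); neither passed on the values as deposited. Gpx1, the main glutathione peroxidase, fell from 408, 485 and 410.0 to 168, 277 and 189 (log2 difference -1.06, standard error 0.19, adjusted p = 0.00442), and Hmox1, the inducible haem oxygenase, fell from 42.5, 25.8 and 26.4 to 13.6, 19.4 and 11.4 (log2 difference -1.04, adjusted p = 0.0335). In the contralateral muscles Hmox1 differed by -0.61 and Gpx1 by -0.20. Subtracting each rat's own contralateral muscle left -0.43 for Hmox1 and -0.86 for Gpx1 (limma, unadjusted p = 0.203 and 0.00510). Of 30 genes in the list the other 26 did not pass. Among heat shock proteins and chaperones 2 of 35 fell and 1 rose. Hspb7 is given above, Hspa1l fell by 0.87 on the log2 scale but is a close copy of the inducible Hspa1 genes, so that its reads are uncertain, and Fkbp4, a co-chaperone of steroid receptors, rose by 0.50 (adjusted p = 0.0377), a call lost on the values as deposited.

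Among growth regulators, Mstn, which restrains muscle size, fell from 11.4, 5.01 and 4.59 to 2.09, 2.61 and 1.61 (log2 difference -1.28, standard error 0.29, adjusted p = 0.0241), below the contralateral mean of 5.54 ± 1.80 (SD, n = 12). Capn2, a calcium-dependent protease, fell by 0.57 on the log2 scale, and these were 2 of 37 atrophy and autophagy genes. Of 37 proteasome genes the immune subunit Psmb9 fell (log2 difference -1.14, adjusted p = 0.00383), beside a list median of 0.08. Of 35 glycolysis and glycogen genes Slc2a1, the basal glucose transporter, fell from 2.92, 3.96 and 2.27 to 0.484, 0.983 and 0.717 (log2 difference -1.22, adjusted p = 0.00380), while 30 of them were above 0 with a median of 0.27. The 10-day muscles alone met the filter for Slc2a1. All its 20-day and 30-day muscles were under 1, and its contralateral mean was 0.62. Among clock genes Hlf, a transcription factor under circadian control, fell (log2 difference -0.80, adjusted p = 0.0373). Scd, a desaturase that makes monounsaturated fat, was 1.59, 2.18 and 1.65 at 10 days and 5.11, 5.35 and 8.83 at 30 days (log2 difference 1.38, adjusted p = 0.0170), and was the 1 of 10 adipocyte list members to rise. In the contralateral muscles Scd differed by 0.78, and subtracting each rat's own contralateral muscle left 0.59 (limma, unadjusted p = 0.0117). Ccl7, a chemokine and the 1 of 21 macrophage list members to pass, fell by 1.32 on the log2 scale. Of 34 myogenic and growth genes Mef2c alone passed, with a list median of -0.23.

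Few genes of protein synthesis passed the test. Of 63 ribosome biogenesis genes 1 rose, Polr1b (log2 difference 0.51, adjusted p = 0.0161), which did not pass as deposited, beside a median of 0.01. Of 43 translation factors and 76 cytoplasmic ribosomal proteins 0 passed in limma (3 and 6 at an unadjusted p under 0.05), with medians of 0.03 and 0.10; on the values as deposited 6 and 11 of them were lower. Of 38 genes of folding in the endoplasmic reticulum 0 passed, with 7 at an unadjusted p under 0.05 and a median of -0.08. Eef2, the elongation factor, was 401, 463 and 477 at 10 days and 404, 429 and 390.1 at 30 days (log2 difference -0.13, adjusted p = 0.684). Synapse genes and those of polyamine synthesis and amino acid transport likewise had 0 of 16 and 0 of 20 passing, with 5 and 3 at an unadjusted p under 0.05. Over all transcripts tested, 2303 of 13452 were under that value. The 31 genes on which the study makes a statement, a list not independent of these samples, had 6 lower and 0 higher, among them Jund, Myc, Hmox1, Bgn and Mef2c.

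No myosin heavy chain transcript passed on the rescaled values of all muscles. No transcript of the table is labelled Myh1 or Myh2. By the order of the genes in RefSeq, one transcript labelled Myh4 lies at the place of Myh2, the transcript Myh4-202 at that of Myh1 and Myh4-203 at that of Myh4. Myh4-202 was 11593, 10434 and 11178 at 10 days and 10412, 9357 and 10332 at 30 days (log2 difference -0.14, adjusted p = 0.828). Myh4-203 was 270.0, 132 and 663 and 31.4, 36.6 and 289, so that 30-day muscle 3 stood above 10-day muscles 1 and 2. Its difference missed the threshold (log2 difference -2.03, standard error 0.58, adjusted p = 0.0637). It passed on the values as deposited (adjusted p = 0.0127) and in 2 of the fits that left out a muscle. Both times were far below the contralateral mean of 6656 ± 958 (SD, n = 12). The transcript at the place of Myh2 had a log2 difference of -0.10, slow Myh7 of -0.08, embryonic Myh3 of -1.11 and neonatal Myh8 of -0.72. Reads of these near copies can be split between them in ways that were not tested.

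A shorter set of markers, apart from the lists in which Scd and Ccl7 passed, was used to check the cells in the tissue. Of 45 markers tested for endothelium, macrophages, fibroblasts, adipocytes, Schwann cells, smooth muscle, satellite cells, red cells and muscle fibres, 0 passed in limma and 8 had an unadjusted p under 0.05. Over all transcripts tested, 2303 of 13452 had an unadjusted p under 0.05. The summed rescaled value of the 6 endothelial markers was 44.0 to 77.9 at 10 days and 50.4 to 68.4 at 30 days, and that of the 9 macrophage markers 54.6 to 116.7 and 77.5 to 100.7. Both ranges overlapped. Markers of neutrophils and of T and B cells summed to under 2 at both times, and S100a8, Cd2, Cd79a, Pax7 and Sox10 were under 1 in all 6 muscles. Markers of red cells summed to 278 to 693 at 10 days and 512 to 550 at 30 days. The 6 muscle fibre markers, among them Acta1 and Ckm, summed to 57024 to 76831 and 50280 to 59106, and they were the highest of all marker sums, as the label of the tissue has it.

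In the contralateral muscles of the same 6 rats, 0 of 13452 transcripts differed between 30 and 10 days in limma, with 883 at an unadjusted p under 0.05 and 1 passing with the replicate number as a block. Of the 273 transcripts that differed in trained muscles, 178 had a contralateral difference of the same sign (65.2%), against 57.1% of all transcripts; the median contralateral difference was 0.07 over the rising and -0.06 over the falling, against 0.75 and -0.92 in the trained muscles. When each rat's own contralateral muscle was subtracted, 6 transcripts (0.0446% of those tested) passed, and 4 of these were among the 273, with Dusp2, Il1rl1-202 and Dlk1-202 lower and Gabrr1 higher. Without 10-day rat 2 or without 30-day rat 1, 1 transcript passed, and without 30-day rat 2 or 3 none did. With the subtraction the median difference was 0.66 over the 112 and -0.82 over the 161. Of the 273, 223 had an unadjusted p under 0.05 in that fit, against 1391 of all 13452 (10.3%). The fit also uses the trained muscles and is not independent of the contrast.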

How the data were processed

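RNA from both tibialis anterior muscles of 12 rats (24 samples) was sequenced by the authors as paired reads from polyadenylated, strand-marked libraries. Per the labels and the methods, the reads were trimmed in Partek Flow, aligned with STAR to Rnor_6.0 (rn6) and quantified to transcripts of Ensembl. For 20027 of these the authors deposited values, here named TPM-type. The authors name DESeq2, but all 24 columns have the same total, so no count model was run. The total of such values does not show depth. From the steps between values of single-exon transcripts, a value of 1 over 1 kb was worth 7.95 to 9.78 fragments (read pairs) in the 6 muscles compared. The step used was the most common one, held by 16 to 22 transcripts per muscle. A gene-level table and the authors' own comparisons were not used here.

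Values were divided by median-of-ratios factors from the 16230 transcripts above 0 in all samples, kept where 3 or more samples reached a value of 1 (13452 transcripts of 11105 genes), and log2(value + 1) entered limma 3.58.1 (R 4.3.3) with 5 groups: the 12 contralateral muscles and 3 trained muscles at each of 2, 10, 20 and 30 days. The moderated test was adjusted over all transcripts (Benjamini-Hochberg, threshold 0.05), and a log2 difference on this scale understates the change of low transcripts. Contralateral muscles were compared in a fit with 8 groups, and each rat's contralateral muscle was subtracted in a fit with animal as a block, because both muscles of a rat come from the same animal (median r of their deviations 0.133, against -0.0701 for different rats). Shares were tested by exact permutation. Lists were described by 1 transcript per gene, that with the highest mean. The fits were tested on simulated data. Tables were made with Python 3.11.15, numpy 2.4.6, pandas 2.3.3 and scipy 1.17.1, and plots with matplotlib 3.10.9. Of 276 library pairs 0 were identical. Replicates are separate rats.

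Named transcripts were the 12 largest rises and falls that passed, reached a mean of 10 and did not overlap between groups, up to 4 called members per list and the 2 most abundant where fewer than 2 passed, genes of the study's statements, and all mitochondrial mRNAs and Myh transcripts; others were chosen after their values were seen, among them the further nuclear rises and falls, Flnc, Xirp2, Pdlim3, Tmod1, Thbs1, Gadd45b, Fosl1, Dusp5 and Klf6. A few transcripts that the rule picks are not reported here. Members and lists were chosen with earlier results of these data known. RefSeq promoters (GRCr8) were matched by symbol for 8106 of the 11105 genes, 72 of 112 rising and 111 of 159 falling. Motifs were searched on both strands: CACGTG of E-box factors, TGANTCA of AP-1, TGACGT of CREB, TGCGCA of NRF-1, CCGGAAG of ETS factors, AGGTCA of nuclear receptors and the CArG box of SRF. Matches may overlap one another, each promoter counts once per motif, and intervals cover counting error only. Alternatives were the values as deposited, a pseudocount of 0.1, no filter, a mean of at least 10, other groups in the fit, an intensity trend, blocks, a threshold of 0.01, sums per gene and each muscle left out. Scaling of nuclear transcripts to their own total and the omission of 1 contralateral muscle were added after seeing the data.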

Additional observations from a re-analysis of the deposited data

Results flagged for a closer look

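For 6 transcripts the difference between 30 and 10 days was not the same in the trained muscle as in the contralateral muscle of the same rats, by limma with animal as a block (adjusted p from 0.0152 to 0.0366). The values that follow are log2 differences in the trained muscle minus those in the contralateral muscle. Dusp2, the phosphatase of MAP kinases described above, had -1.999, with contralateral means of 0.340 at 10 days and 0.189 at 30 days. Il1rl1-202, of the receptor for interleukin-33, had -1.852.

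Dlk1-202, of a Notch ligand relative that restrains fat cell formation, had -2.136. Its trained muscles were at 2.84, 4.03 and 4.99 at 10 days and at 1.29, 0.853 and 1.86 at 20 days, and it was listed at or next to 0 in the 30-day muscles, below the contralateral mean of 0.374. The 10-day muscles of Dlk1-202 alone met the filter, a value of 1 in 3 samples, and no 30-day muscle reached 1. Gabrr1, of a GABA receptor subunit, had 1.328 and rose from 1.40, 0.280 and 0.751 to 2.89, 2.45 and 2.68, all but 10-day muscle 2 above the contralateral maximum of 0.563.

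The other 2 transcripts did not pass in the trained muscles on their own. Cep89 had -2.086, where the contralateral mean went from 0.104 to 1.70 while the trained mean went from 1.09 to 0.165. Fcgr2a-203 had 2.087, with trained values of 0.864, 0.534 and 0.0417 at 10 days and 2.64, 2.29 and 3.52 at 30 days. Apart from Dusp2 at 10 days these transcripts were low, and how the quantification divided reads between the transcripts of 1 gene was not tested.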

How the results depend on the processing

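With each trained muscle left out in turn, the count of changed transcripts ran from 72 to 353 against 273 with all, and it was 6 with each rat's own contralateral muscle subtracted, 1725 as deposited, 441 on sums per gene, 170 with a pseudocount of 0.1, 23 in the fit of 6 muscles, 53 in that of 12 trained muscles and 65 at a threshold of 0.01. Between contralateral muscles the count was 0 throughout, and 1 with the replicate block. For the change beyond the contralateral muscle it was 0 to 6 with a rat left out, 2 without a filter and 2 with a pseudocount of 0.1. The replicate numbers do not pair different rats (correlations of deviations -0.0694, 0.142 and 0.0803, and 4 of 6 muscles correlated best with their own number); the replicate block gave 42 changed transcripts, 3 immediate early, 2 stretch-responsive, 0 collagen, 0 cell cycle and 0 nuclear respiratory chain genes.

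The 13 mitochondrial mRNAs passed in numbers of 8 to 13 with a muscle left out, 0 with own contralateral muscle subtracted and 5 in the fit of 6. Of immediate early genes 2 to 12 passed with a muscle left out, 1 with own contralateral subtracted, 23 as deposited, 5 with a pseudocount of 0.1, 1 in the fit of 6, 3 in that of 12 and 2 at 0.01. Stretch-responsive genes gave 1 to 15, then 0 with own contralateral subtracted, 23 as deposited, 0 in the fit of 6, 0 in that of 12 and 1 at 0.01. Collagens gave 0 to 6, then 0 with own contralateral subtracted, 12 as deposited, 10 with 8 groups, 2 with a pseudocount of 0.1, 0 in the fit of 6, 0 in that of 12 and 0 at 0.01. Cell cycle genes gave 4 to 6, then 0 with own contralateral subtracted, 0 at a mean of 10, 0 in the fit of 6 and 2 in that of 12. Nuclear respiratory chain genes gave 0 to 4, then 0 with own contralateral subtracted, 1 as deposited (lower at 30 days), 29 at a mean of 10, 9 without a filter, 36 with nuclear totals, 8 without 1 contralateral muscle, 11 with an intensity trend, 0 in the fit of 6, 0 in that of 12 and 0 at 0.01.

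Of 154 named transcripts 92 were called, and none of these differences changed sign in any alternative. With other groups in the fit, the replicate block, an intensity trend or another threshold the group means stay the same. The sign could not change there. The cause of the moves in the counts was not tested, beyond the fewer degrees of freedom in fits of fewer muscles and the scale factor that the deposited values lack. Values carry no counts, so depth sets no interval here; transcripts near 1 rest on few reads, and their log2 differences are compressed by the pseudocount.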

Other observations

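Groups of genes that were not among the lists are given here as values, chosen after their values were seen. Of 16 tubulin genes tested, 4 fell and 0 rose, with a median log2 difference of -0.39. Tuba4a, an alpha tubulin, was 444, 708 and 729.7 at 10 days and 249, 257 and 219 at 30 days (log2 difference -1.34, standard error 0.26, adjusted p = 0.00635), so that the 10-day muscles lay above the 30-day muscles without overlap. Tubb4b, a beta tubulin, fell by 1.14, Tuba1b by 0.86 and Tubb5 by 0.76 on the log2 scale, and tubulin genes are near copies, so that reads may be divided between them.

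Of 16 integrin genes, the receptors that anchor cells to the matrix, 4 fell, with a median of -0.13. Itga7, the laminin receptor subunit of muscle fibres, was 13.9, 17.5 and 12.2 at 10 days and 6.73, 5.35 and 7.22 at 30 days (log2 difference -1.06, adjusted p = 0.0461). Itgb1, its partner, was 136, 139 and 85.7 and 67.6, 76.5 and 75 (log2 difference -0.68, adjusted p = 0.0462), and Itga5 and Itgb4 fell by 0.63 and 0.74 on the log2 scale. Each of these 4 calls was lost in at least 1 of the fits that left out a muscle.

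Of 14 class I genes of the major histocompatibility complex, which present peptides to T cells, 3 fell, with a median of -0.66. RT1-CE10 differed by -1.05, RT1-CE3 by -0.99 and RT1-CE4 by -1.48 on the log2 scale, and these genes are near copies too. The contralateral muscles had differences of -0.60, -0.54 and -0.99, which left -0.45, -0.45 and -0.49 once each rat's own contralateral muscle was subtracted (unadjusted p = 0.0769, 0.0870 and 0.118). None of the 3 passed in any of the 6 fits that left out 1 muscle.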
